A study of Danio rerio with 4 samples.

Results

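The Hox genes of zebrafish were measured by RNA-sequencing of whole embryos at 72 hpf, with and without a knockout of nexn. A row of the deposited gene tables was taken as a Hox gene when its symbol began with hoxa, hoxb, hoxc or hoxd followed by a number. This gave 48 of 32057 genes, and all 48 were among the 20312 genes that passed the low-count filter and were tested. The number in a symbol is the paralog group, 1 to 13, and the letter at its end names the copy of the cluster, so that hoxb5b is the group 5 gene of the hoxbb cluster. The symbols were used as deposited, but a separate table of gene names lists the gene called hoxa4a as HOXA3, so its place in group 4 rather than group 3 is uncertain.

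Each genotype had 2 libraries, each made from 25 pooled embryos. The nexn-/- embryos carried a CRISPR/Cas9 deletion in exon 2 of nexn, the gene of the actin-binding sarcomere protein nexilin, which gives a premature stop codon. They came from an incross of nexn-/- adults and the nexn+/+ embryos from an incross of nexn+/+ adults. Those adults descended from 1 heterozygous pair and were kept in separate tanks, so parents and genotype cannot be told apart in these pools. The labels call the libraries biological replicates but do not say whether the pools came from separate clutches, so p-values measure the spread between these pools. In whole embryos, fewer cells of a type and less RNA per cell cannot be told apart.

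Hox genes encode homeodomain transcription factors that give cells their position along the head-to-tail axis. Their order along a cluster follows the order of their expression domains. Genes of the low groups begin in the hindbrain, those of the middle groups in the posterior hindbrain and anterior trunk, and those of the highest groups in the caudal trunk, the tail and the distal part of fins. At the stage studied they are known to be transcribed in hindbrain and spinal cord, in tissue derived from somites and lateral plate, and in the fins, whereas forebrain and midbrain lack them. Retinoic acid opens the low-numbered groups, Cdx and Evx factors act on the high-numbered groups, Polycomb proteins keep silent clusters closed, and the TALE proteins Pbx, Meis and Pknox bind DNA together with Hox proteins. The additional duplication of the fish genome left zebrafish with 7 Hox clusters in these tables, 4 named with an a copy and 3 with a b copy.

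Depth was between 19413597 and 21956272 estimated counts per library. nexn itself stood at 96.3 and 75.4 CPM in the nexn+/+ libraries and at 40.2 and 51.0 CPM in the nexn-/- libraries (log2(FC) -0.91 with a standard error of 0.168, adjusted p = 0.00737). Here and below, log2(FC) is that of nexn-/- over nexn+/+, and adjusted p-values come from edgeR's quasi-likelihood test and are Benjamini-Hochberg values over all tested genes. CPM are counts scaled to library depth with TMM factors, which assumes that most genes do not differ. For rpl13, a ribosomal reference gene, the log2(FC) of -0.24 (standard error 0.151) missed the threshold with an adjusted p = 0.259. Scaling to library size, to the upper quartile or to rpl13 instead raised the log2(FC) of the tested genes, at their median, by 0.15, 0.10 and 0.23. The nexn+/+ libraries differed from each other more than the nexn-/- libraries did: the chi-square statistic per degree of freedom over genes was 50.4 for the former and 5.58 for the latter. nexn+/+ replicate 2 stood apart in the Hox genes of the high groups, as described further on.

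In absolute terms, Hox transcripts were rare to moderate and the middle groups dominated. In TPM, the deposited unit that allows for gene length, mean levels over the 4 libraries ran from 0.753 to 43.4. The highest were hoxa4a with 43.4 TPM, hoxc3a with 35.3 TPM, hoxb3a with 34.6 TPM, hoxb5a with 32.8 TPM and hoxb5b with 32.5 TPM, genes of the posterior hindbrain and anterior trunk. Within group 1 hoxb1b, which patterns the hindbrain from gastrulation on, was the highest (9.81 and 11.7 TPM in nexn+/+, 9.73 and 9.46 TPM in nexn-/-). Within group 2 it was hoxb2a, a gene of the hindbrain segments (9.59 and 12.2 TPM in nexn+/+, 8.93 and 9.78 TPM in nexn-/-). From group 6 tailwards the leading genes were hoxb6b, hoxb7a, hoxb8a, hoxa9b, hoxc10a, hoxd11a, hoxc12a and hoxb13a. Their mean levels rose slightly from 22.5 TPM for hoxb6b to 25.4 TPM for hoxb8a. From there they stepped down to 7.47 TPM for hoxb13a, with hoxc12a (14.9 TPM) above hoxd11a (8.92 TPM). As counts, the 48 genes had between 8 and 1718 per library, and 8 of them had a mean under 5 CPM.

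**Figure D1:**
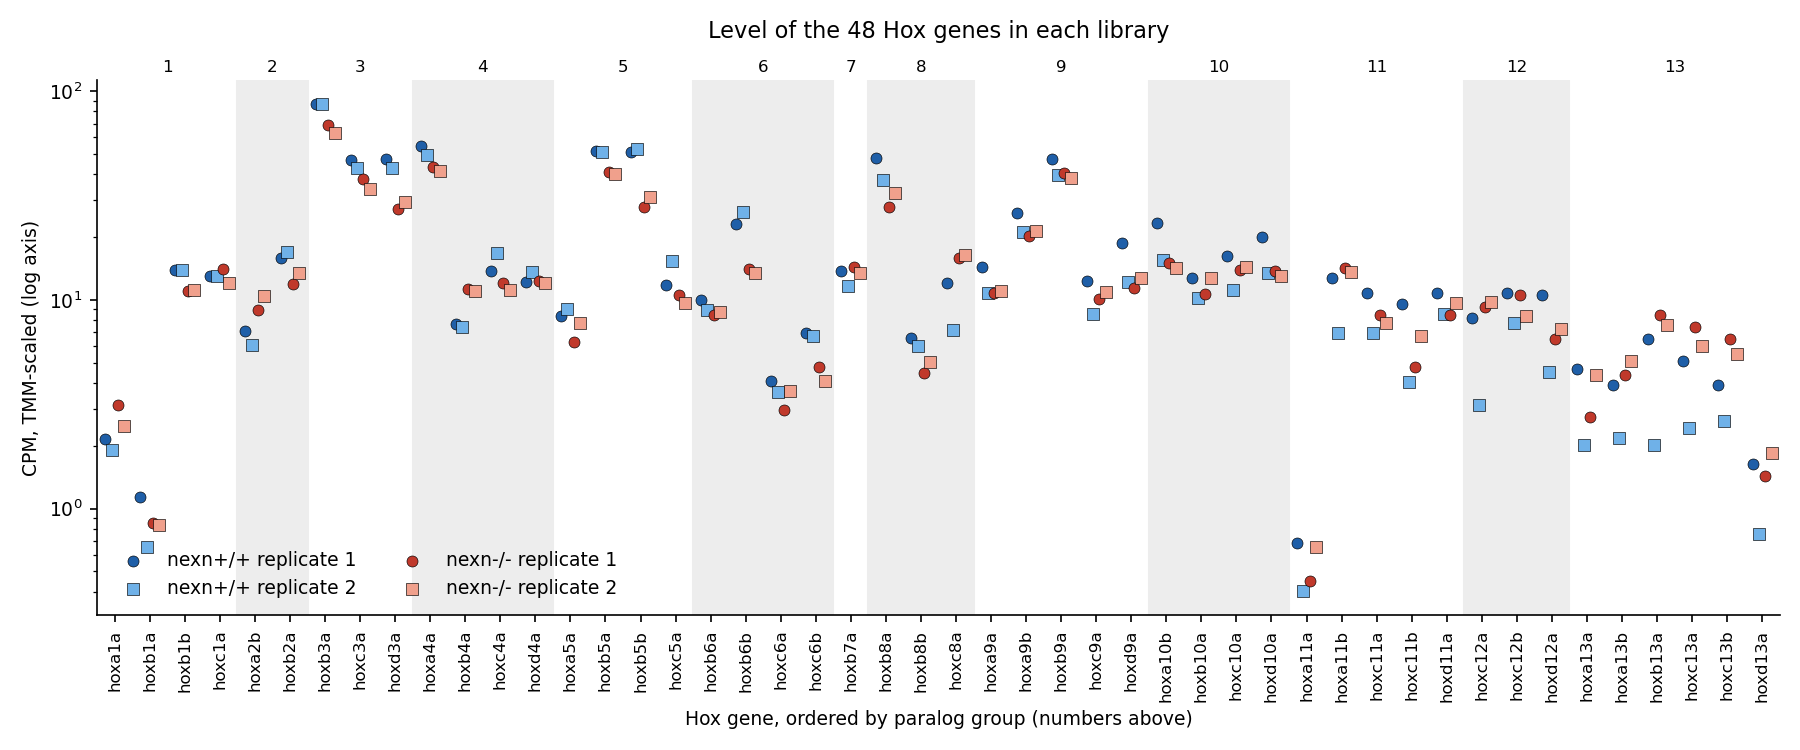
CPM (TMM-scaled, log axis) of the 48 Hox genes in each library, with genes ordered by paralog group and 1 point per library. The blue points of nexn+/+ lie above the red points of nexn-/- for most genes of groups 3 to 6, and the pale blue squares of nexn+/+ replicate 2 lie lowest for most genes of groups 11 to 13.

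Few Hox genes passed the test. To be called, a gene needed an adjusted p below 0.05 together with a log2(FC) beyond 0.5 in either direction. In nexn-/- embryos, hoxd3a, hoxb5b, hoxb6b and hoxb8a were called lower and hoxb4a and hoxc13b were called higher. These 6 of 48 genes are 12.5%, whereas 30.6% of all tested genes were called. By direction, 4.17% of Hox genes were called higher against 16.7% of all tested genes, and 8.33% were called lower against 13.9%. With no limit on the fold change, 6 Hox genes were lower and 2 higher, while 3524 genes in all were lower and 3609 higher. The additions were hoxb5a, a member of group 5, and hoxb3a, which was named after its values were seen. Across the 48 genes the median log2(FC) was -0.13, with 30 of 48 below 0, against a median of 0.02 over all tested genes. In 17 Hox genes (35.4%) each nexn-/- library lay below each nexn+/+ library in CPM, in 10 (20.8%) above, and in 21 the genotypes overlapped. Among all tested genes 34.4% lay below and 36.4% above. In TPM, which is not scaled by TMM, 9 Hox genes lay below and 16 above, against 20.9% and 43.8% of all tested genes, so the balance of directions depends on the unit.

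Counts of calls in this small set changed with the libraries used, as they did over all genes. Without nexn+/+ replicate 1 there were 11 Hox genes called higher and 6 lower, against 23.5% and 17.3% of all genes tested in that fit. Without nexn+/+ replicate 2 there were 2 higher and 10 lower, against 20.2% and 15.5%. In these fits nexn+/+ was 1 library, assumed to vary like the nexn-/- pair, from which the spread was taken. That pair was the closer one, and calls over all genes rose from 6223 to 8560 and 7450, so they cannot be read as calls with a replicated control. With either nexn-/- library left out, 0 were called by edgeR's quasi-likelihood test (4 lower and 0 higher at an unadjusted p under 0.05). In these last fits the remaining spread came from the nexn+/+ pair alone, and over all genes 4 were called in place of 6223. DESeq2 called 3 lower, hoxb5b, hoxb6b and hoxd3a, and 0 higher (4 higher at an unadjusted p under 0.05), and limma-voom called 4 lower and 3 higher. Over all tested genes DESeq2 called 13.4% lower and 14.4% higher, and limma-voom 14.01% and 17.6%.

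**Figure D2:**
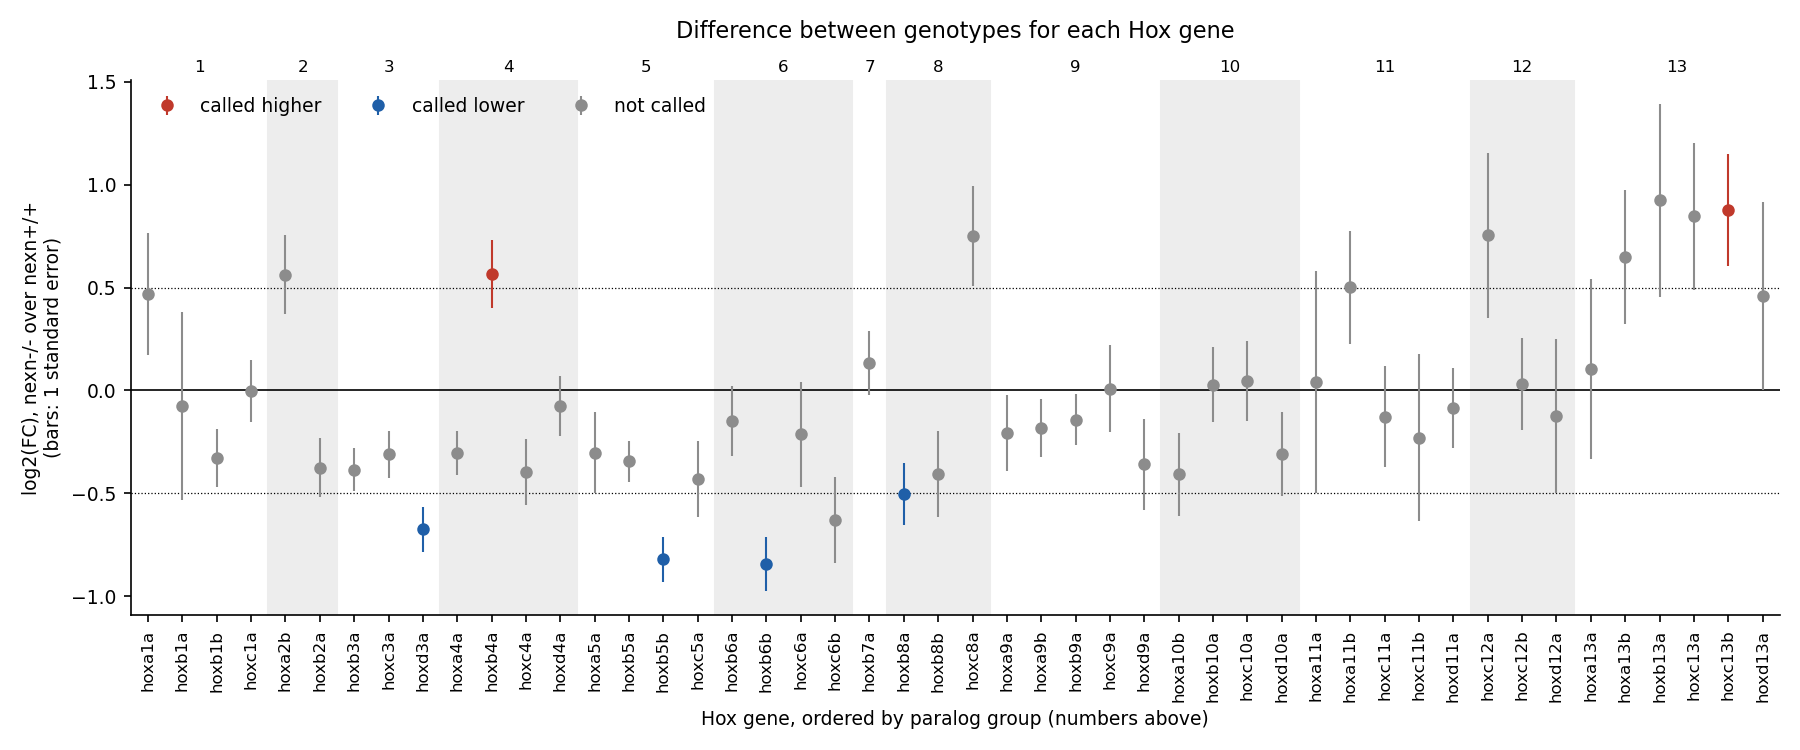
log2(FC) of nexn-/- over nexn+/+ for each Hox gene with 1 standard error, genes ordered by paralog group, dotted lines at the limit of 0.5 in either direction. The 4 genes called lower lie in groups 3, 5, 6 and 8, and the 2 called higher are hoxb4a in group 4 and hoxc13b in group 13.

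The members of groups 3 to 6 were the ones most often below nexn+/+. This range of groups was chosen after the values had been seen. Of its 15 genes, 14 had a negative log2(FC), and in 12 each nexn-/- library lay below each nexn+/+ library, as in 34.4% of all tested genes. In 1 of the 15 the order was the opposite. Summed over the 15 genes, the level was 436 and 434 CPM in nexn+/+, against 329 and 321 CPM in nexn-/-, or 74.7% of nexn+/+. The size depended on the scaling. With library size alone, 8 of the 15 genes stayed wholly below nexn+/+ (53.3%, against 23.3% of all tested genes), and with rpl13 as reference 4 did (26.7%, against 18.4%). In TPM the sums were 308 and 370 in nexn+/+ and 303 and 294 in nexn-/-, so the nexn-/- libraries lay closer to the lower nexn+/+ library than the nexn+/+ libraries lay to each other.

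hoxb5b, known in zebrafish as a gene of the retinoic acid response that restrains the number of heart progenitors, showed one of the clearest differences. It stood at 51.3 and 53.1 CPM in nexn+/+, against 27.8 and 31.3 CPM in nexn-/- (log2(FC) -0.82, standard error 0.110, adjusted p = 0.00254). hoxb6b, its neighbour of the anterior trunk, stood at 23.1 and 26.3 CPM in nexn+/+, against 14.1 and 13.4 CPM in nexn-/- (log2(FC) -0.84, standard error 0.131, adjusted p = 0.00421). For both genes, in CPM, the genotypes lay well apart and the replicates close together. In TPM the genotypes did not overlap, but the nexn+/+ libraries lay farther apart. hoxb6b had 23.44 and 31.97 TPM in nexn+/+, against 18.04 and 16.38 TPM in nexn-/-. Its nexn+/+ libraries thus lay farther from each other than the lower of them lay from nexn-/-. hoxb5b had 35.59 and 43.9 TPM in nexn+/+, against 24.17 and 26.13 TPM in nexn-/-. Both genes were called under each of the 10 alternative settings that kept all libraries. hoxd3a, a gene of the posterior hindbrain, stood at 47.4 and 43.0 CPM in nexn+/+, against 27.2 and 29.4 CPM in nexn-/- (log2(FC) -0.68, standard error 0.110, adjusted p = 0.00499). It lost its call under 1 of these settings, rpl13 as reference (log2(FC) -0.44, adjusted p = 0.0813).

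Against the direction of its group, hoxb4a, which marks the posterior hindbrain and its boundary to the spinal cord, was higher. It stood at 7.65 and 7.41 CPM in nexn+/+, against 11.3 and 10.98 CPM in nexn-/- (log2(FC) 0.57, standard error 0.164, adjusted p = 0.0361). Its libraries did not overlap between genotypes, and it kept the call under 8 of the 10 settings, losing it with the replicate number as a block and with DESeq2 (adjusted p = 0.0601 and 0.0851). The most abundant group 4 gene, hoxa4a, had 54.9 and 49.6 CPM in nexn+/+, against 43.2 and 41.3 CPM in nexn-/-, below nexn+/+ in both libraries, with an adjusted p of 0.0658 that missed the threshold (log2(FC) -0.31, standard error 0.107).

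hoxb5a, the partner of hoxb5b, was also below nexn+/+ in both libraries, with 51.4 and 51.1 CPM against 40.8 and 39.98 CPM. Its adjusted p of 0.0345 passed but its log2(FC) of -0.34 (standard error 0.098) lay within the limit of 0.5. hoxb6a stood at 10.03 and 8.97 CPM in nexn+/+, against 8.44 and 8.70 CPM in nexn-/- (log2(FC) -0.15, adjusted p = 0.539), and its sign turned under 2 of the alternative settings.

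For hoxc3a and hoxb3a of group 3 the unit mattered. hoxc3a had 46.7 and 42.8 CPM in nexn+/+, against 38.1 and 34.1 CPM in nexn-/- (log2(FC) -0.31, standard error 0.113, adjusted p = 0.0726), but 31.9 and 33.0 TPM against 41.1 and 35.1 TPM. The direction thus turned between units. Its effective length, the transcript length that the quantification assigned to it, was 1386 and 1454 bases in nexn+/+ and 1090 and 1113 bases in nexn-/-. hoxb3a, the Hox gene with the most counts, also changed with the unit. It had 86.4 and 86.6 CPM in nexn+/+, against 69.2 and 63.3 CPM in nexn-/-, but overlapping values of 30.8 and 38.4 TPM against 33.7 and 35.5 TPM. Its effective length was 2659 and 2522 bases against 2413 and 2043 bases. The log2(FC) of hoxb3a was -0.38 (adjusted p = 0.0298) without and -0.17 (adjusted p = 0.284) with an offset for effective length. In a later assembly, GRCz12tu, the gene models of both reach over neighbours. The counts were made on GRCz11, and overlaps of the gene models counted there were not checked. In the gene order of the GRCz12tu assembly hoxb3a spans hoxb4a, hoxb5a and hoxb6a, hoxc3a spans hoxc4a to hoxc9a, hoxd3a overlaps hoxd4a, and hoxb1b overlaps hoxb5b and hoxb6b. In all, 15 Hox genes overlap another in GRCz12tu, 4 of the 6 called ones among them. Where the counted gene models overlap in the same way, the split of reads is uncertain.

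Of the 10 genes of groups 1, 2, 7 and 8, 6 had a negative and 4 a positive log2(FC). Only 1 of the 10 was called, where 30.6% of all tested genes were called. hoxb1b had 13.9 CPM in both nexn+/+ libraries and 11.04 and 11.2 CPM in nexn-/-, and hoxb2a had 15.9 and 16.9 CPM against 11.9 and 13.5 CPM. Neither was called (adjusted p = 0.114 and 0.082). hoxa2b, the other group 2 gene, went the opposite way with 7.08 and 6.05 CPM against 8.97 and 10.4 CPM. Its log2(FC) of 0.56 missed the threshold (adjusted p = 0.0605) but was called under 3 of the 10 settings. hoxb7a, the only group 7 gene, overlapped between genotypes with 13.8 and 11.6 CPM in nexn+/+, against 14.4 and 13.4 CPM in nexn-/- (log2(FC) 0.13, adjusted p = 0.539). hoxb8a, a gene of trunk spinal cord and mesoderm, was called lower at the edge of both limits. It stood at 47.99 and 37.5 CPM in nexn+/+, against 27.8 and 32.5 CPM in nexn-/- (log2(FC) -0.50, standard error 0.151, adjusted p = 0.0408), and only 2 of the 10 settings kept its call. Its partner hoxb8b had 6.57 and 5.997 CPM against 4.44 and 5.03 CPM (log2(FC) -0.41, adjusted p = 0.177). In contrast, hoxc8a had a positive log2(FC) of 0.75 that missed the threshold (adjusted p = 0.0513) but was called under 6 of the 10 settings. It stood at 12.07 and 7.16 CPM in nexn+/+, against 15.84 and 16.45 CPM in nexn-/-. Its size depended on the nexn+/+ library used, with a log2(FC) of 1.17 without nexn+/+ replicate 1 and 0.41 without nexn+/+ replicate 2.

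**Figure D3:**
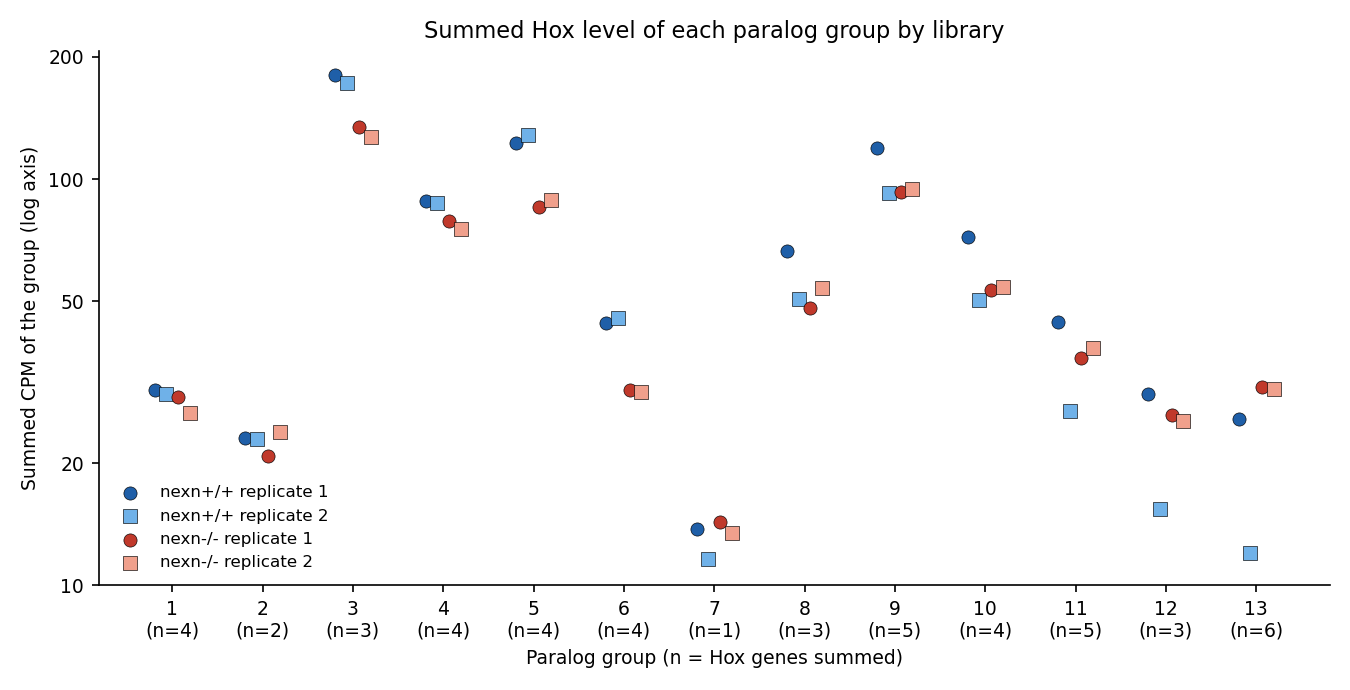
Summed CPM of the Hox genes of each paralog group (log axis), 1 point per library. Groups 3, 5 and 6 are lower in both nexn-/- libraries (group 5 at 85.5 and 88.7 CPM against 123 and 129 CPM), and nexn+/+ replicate 2 falls away from group 8 on, down to 11.99 CPM in group 13 against 25.7 CPM in nexn+/+ replicate 1.

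The summed level of group 3 was 181 and 172 CPM in nexn+/+, against 135 and 127 CPM in nexn-/-. That of group 5 was 123 and 129 CPM against 85.5 and 88.7 CPM, and that of group 6 was 44.2 and 45.6 CPM against 30.3 and 29.9 CPM. In these 3 groups the gap between genotypes in CPM was several times the gap between replicates. In TPM it was not. The group 3 sums overlapped at 90.4 and 99.8 TPM in nexn+/+ against 93.4 and 91.7 TPM in nexn-/-. The group 5 sums, at 96.04 and 123 TPM against 86.03 and 85.8 TPM, and the group 6 sums, at 50.7 and 62.3 TPM against 44.1 and 42.8 TPM, did not overlap, but the nexn+/+ libraries lay farther from each other than the lower of them lay from nexn-/-. Their median log2(FC) of -0.38, -0.39 and -0.42 stayed negative under each scaling, the weakest being -0.14, -0.16 and -0.19 with rpl13 as reference. Group 4 was intermediate at 88.4 and 87.3 CPM against 78.8 and 75.5 CPM, and its median of -0.19 turned to 0.05 with rpl13. For groups 9 to 12 together, the sum of 265 CPM in nexn+/+ replicate 1 lay above, and that of 185 CPM in nexn+/+ replicate 2 below, the 209 and 213 CPM of the nexn-/- libraries.

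The Hox genes of groups 9 to 13, which pattern the caudal trunk, tail and fins, included 1 called gene among 23, hoxc13b, where 30.6% of all tested genes were called. Over these 23 genes the sum was 291 and 197 CPM in nexn+/+, against 240 and 243 CPM in nexn-/-. In CPM the nexn-/- libraries thus lay between the nexn+/+ libraries. In TPM they lay above both, with 215.3 and 211.8 TPM against 205.5 and 159.5 TPM in nexn+/+. hoxa9b overlapped between genotypes with 26.2 and 21.1 CPM in nexn+/+, against 20.2 and 21.4 CPM in nexn-/- (log2(FC) -0.18, adjusted p = 0.355). hoxc10a, whose mouse counterpart marks lumbar motor neurons, had 16.2 and 11.2 CPM against 13.9 and 14.3 CPM (log2(FC) 0.05, adjusted p = 0.880). hoxd11a, a gene of fins and tail, had 10.8 and 8.52 CPM against 8.48 and 9.71 CPM (log2(FC) -0.09, adjusted p = 0.764). For these 3 genes the nexn+/+ libraries alone spanned most of the range.

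All 6 genes of group 13, the end of the clusters, had a positive log2(FC), between 0.11 and 0.92 with a median of 0.75, and the median stayed positive under each scaling. The sign of single genes was less stable. hoxa13a turned to -0.39 without nexn+/+ replicate 2 and to -0.27 without nexn-/- replicate 2. hoxd13a turned to -0.01 without nexn+/+ replicate 2. In 4 of the 6 each nexn-/- library lay above each nexn+/+ library, as in 36.4% of all tested genes. hoxc13b had 3.91 and 2.62 CPM in nexn+/+, against 6.46 and 5.51 CPM in nexn-/- (log2(FC) 0.88, standard error 0.272, adjusted p = 0.0451). With an effective length offset and with DESeq2 it missed the threshold (adjusted p = 0.0555 and 0.0644). Its partner hoxc13a had 5.10 and 2.42 CPM against 7.40 and 6.04 CPM (log2(FC) 0.85, standard error 0.355, adjusted p = 0.108). hoxb13a, which in zebrafish is active in the tail bud and caudal fin, had the largest log2(FC) of all 48 genes but missed the threshold. It stood at 6.52 and 2.02 CPM in nexn+/+, against 8.44 and 7.61 CPM in nexn-/- (log2(FC) 0.92, standard error 0.468, adjusted p = 0.169). hoxc12a of group 12 looked alike, with 8.22 and 3.12 CPM in nexn+/+, against 9.24 and 9.75 CPM in nexn-/- (log2(FC) 0.75, standard error 0.400, adjusted p = 0.187). In each of these genes nexn+/+ replicate 2 was the lowest library, and nexn+/+ replicate 1 lay closer to nexn-/-. Without nexn+/+ replicate 1, hoxb13a, hoxc13a and hoxc12a were called higher with a log2(FC) of 1.99, 1.47 and 1.60. Without nexn+/+ replicate 2 none of the 3 was called, with a log2(FC) of 0.29, 0.39 and 0.20 (adjusted p = 0.262, 0.163 and 0.412). All 3 were also called with library size alone (1.11, 1.02 and 0.94) and with rpl13 as reference.

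Measured in CPM, the difference between the nexn+/+ libraries grew from head to tail along the Hox code. In groups 3 to 6, nexn+/+ replicate 2 had 99.5% of the summed level of replicate 1. In group 8 it had 76.1%, in group 10 it had 69.7%, in group 12 it had 52.2% and in group 13 it had 46.6%. All 23 genes of groups 9 to 13 were lower in nexn+/+ replicate 2 than in replicate 1. The share of all tested genes that were lower there was not computed. The nexn-/- libraries differed little, with 101% in groups 9 to 13 for replicate 2 over replicate 1. Over the 48 genes, Spearman's rho between paralog number and the log2 ratio of replicate 2 over 1 was -0.78 in nexn+/+ and 0.17 in nexn-/- (Pearson's r -0.75 and 0.24). These are descriptions over genes that share libraries and clusters. In TPM, the sum of groups 3 to 6 was higher in nexn+/+ replicate 2 than in replicate 1 (370.4 against 307.9). The sums of group 8 (44.22 against 49.04), group 9 (69.5 against 76.94) and group 13 (10.36 against 20.05) were lower. The near equality of the nexn+/+ libraries in groups 3 to 6 thus held in CPM only.

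In CPM, the direction of the genotype difference in the high groups followed which nexn+/+ library was used. Between paralog number and log2(FC), Spearman's rho was 0.46 with all libraries, 0.61 without nexn+/+ replicate 1 and 0.13 without nexn+/+ replicate 2 (Pearson's r 0.42, 0.60 and 0.11). The summed level of groups 11 to 13 had a log2 ratio of nexn-/- over nexn+/+ of 0.29. It became 0.79 without nexn+/+ replicate 1 and -0.09 without nexn+/+ replicate 2. In TPM these sums were 75.04 and 46.12 in nexn+/+, against 91.21 and 88.57 in nexn-/-. Both nexn-/- sums thus lay above both nexn+/+ sums. As single genes, 43.8% of all tested genes lay above in TPM, and no such share was computed for sums of genes. Group 13 kept a positive median of 1.16 and 0.28 in these fits. For groups 3 to 6 the same ratio was -0.42 with all libraries, and -0.42 without either nexn+/+ library.

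**Figure D4:**
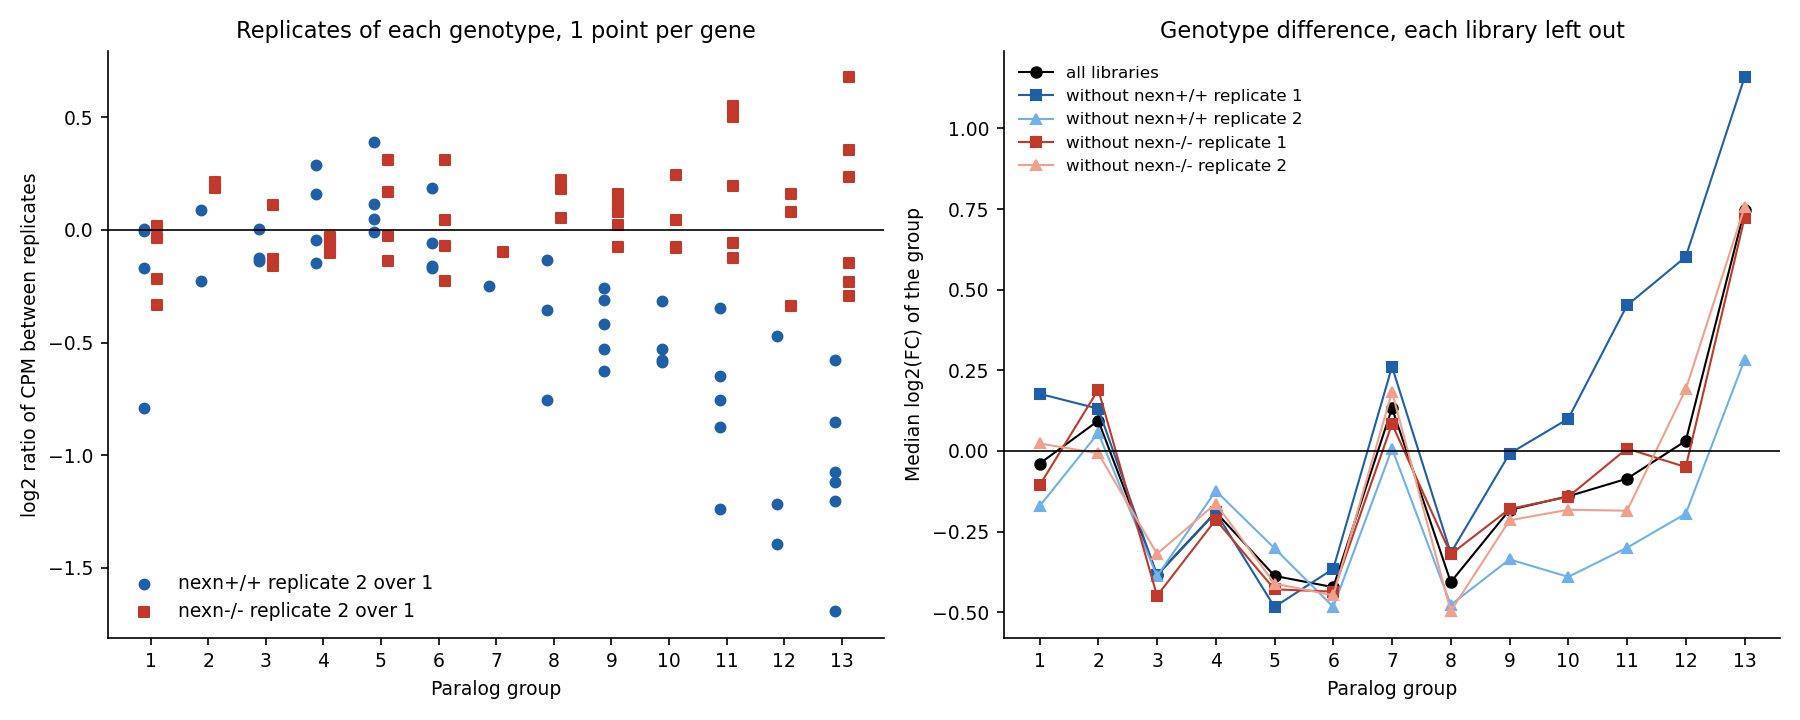
Left, log2 ratio of CPM between replicates of a genotype for each Hox gene by paralog group. Right, median log2(FC) of each paralog group with all libraries and with each library left out. The nexn+/+ ratios fall with paralog number (Spearman's rho -0.78 over 48 genes). On the right the lines without a nexn+/+ library lie closest in groups 2 to 6 and 8, take opposite signs in group 1 (0.18 and -0.17), and lie farthest apart in groups 11 to 13, ending at 1.16 without nexn+/+ replicate 1 and at 0.28 without nexn+/+ replicate 2 in group 13.

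Some other axial and trunk genes were also low in nexn+/+ replicate 2, and others were not. tbxta, the notochord and tail bud factor Brachyury, had 13.99 and 6.80 CPM in nexn+/+, against 13.7 and 14.3 CPM in nexn-/-. The caudal regulator cdx1a had 2.38 and 0.857 CPM against 3.95 and 3.11 CPM. These genes were picked after their values were seen. They belong to a list of 8 posterior regulators of which 4 were lower and 4 higher in nexn+/+ replicate 2 than in replicate 1, among the latter evx1 (6.74 and 7.51 CPM) and the weakly expressed tbx16, cdx4 and gdf11. The list of 10 genes of somites and muscle precursors summed to 87.9 and 88.2 CPM in nexn+/+, but its members differed. Some were lower in nexn+/+ replicate 2 than in replicate 1, such as myod1 (13.9 and 9.17 CPM) and meox1 (12.2 and 7.81 CPM). Others were higher, such as uncx (34.2 and 37.95 CPM) and pax7a (5.95 and 9.83 CPM). A list of 15 genes of differentiated trunk muscle (skeletal actins, creatine kinases, fast myosin light chains, troponins, tropomyosin, the calcium pump atp2a1 and parvalbumins), also added after the replicate difference was seen, summed to 112224 CPM in nexn+/+ replicate 1 and to 52116 CPM in replicate 2. In the nexn-/- libraries it summed to 72146 and 77178 CPM. Muscle and posterior Hox levels were thus both low in the same library, and the part that the share of trunk and tail tissue had in the Hox values was not tested.

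Among the 7 clusters, hoxbb had the lowest summed level in nexn-/- relative to nexn+/+. It holds hoxb1b, hoxb5b, hoxb6b and hoxb8b, and all 4 lay below nexn+/+ in both nexn-/- libraries, as 34.4% of all tested genes did. Their sum was 95.0 and 99.3 CPM in nexn+/+, against 57.4 and 60.9 CPM in nexn-/-, or 60.9% of nexn+/+. The hoxda cluster, which runs from hoxd3a to hoxd13a, had 121 and 96.0 CPM against 81.2 and 86.0 CPM, and the hoxba cluster had 301 and 273 CPM against 244 and 242 CPM. The CPM sums of hoxab, hoxca and hoxcb overlapped between genotypes. The hoxaa sum of 85.1 and 73.7 CPM lay above the 66.6 and 67.6 CPM of nexn-/-. By gene, only hoxd3a of the 7 hoxda genes lay below nexn+/+ in both nexn-/- libraries in CPM, and 6 overlapped. Of the 6 hoxaa genes 2 lay below, 1 lay above and 3 overlapped. Neither sum thus describes its whole cluster. In TPM the sums of hoxaa, hoxbb and hoxda stayed lower in nexn-/-, and that of hoxcb overlapped. The hoxba sum overlapped too, at 180.6 and 192.1 TPM in nexn+/+ against 194.7 and 192.0 TPM. Higher in nexn-/- in TPM were hoxab (50.3 and 42.8 against 53.07 and 52.73) and hoxca (137.0 and 134.3 against 169.4 and 157.3). The clusters hold different paralog groups, so these sums differ in both cluster and group.

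The ratio between duplicate copies of 1 ancestral gene differed between genotypes in some pairs and overlapped in others. In 11 pairs both the a and the b copy were measured. In TPM the a copy was the higher in all libraries in 5 pairs and the b copy in 4. The CPM ratio of b over a copy was below its nexn+/+ values in each nexn-/- library in 4 pairs, higher in 2 and overlapping in 5. For the CPM of single genes, 34.4% of all tested genes lay below and 36.4% above. No such share was computed for ratios of other gene pairs, so these counts have no direct background. A ratio within a library does not depend on the scaling between libraries. In CPM, hoxb5b was level with hoxb5a in nexn+/+ (ratio 0.998 and 1.04) and fell behind it in nexn-/- (0.682 and 0.782). In TPM, which allows for gene length, hoxb5b was above hoxb5a in nexn+/+ (1.118 and 1.164) and below it in nexn-/- (0.765 and 0.876). For hoxb6b over hoxb6a the ratio was 2.31 and 2.93 in nexn+/+ and 1.68 and 1.54 in nexn-/-. In group 8, where hoxb8a alone was called, hoxb8b over hoxb8a was 0.137 and 0.160 against 0.160 and 0.155, so the ratio overlapped between genotypes. The same held for hoxc13b over hoxc13a, at 0.767 and 1.08 against 0.873 and 0.913. The most unequal pairs were hoxa11b over hoxa11a, where the a copy had 8 to 15 counts, and hoxb1b over hoxb1a, where the a copy had 13.1 to 19.5 counts.

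**Figure D5:**
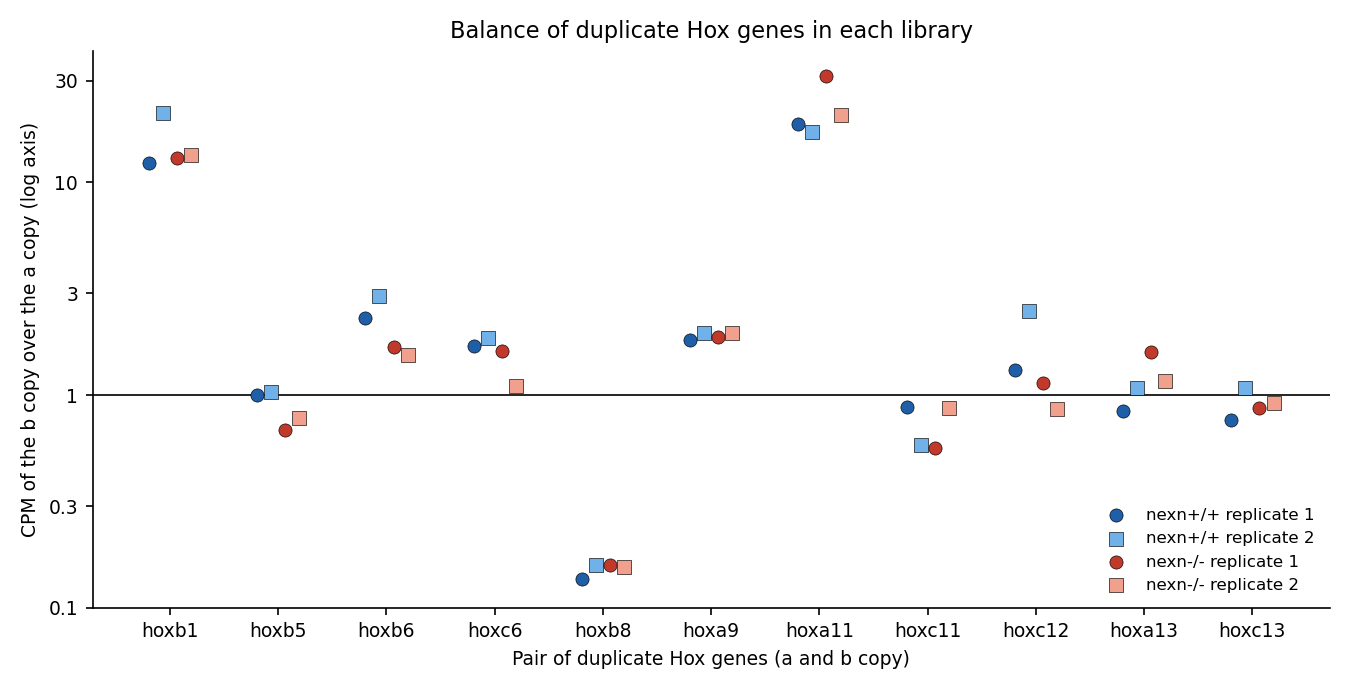
CPM of the b copy over the a copy (log axis) for the 11 pairs of duplicate Hox genes, 1 point per library. The line marks equal CPM, which does not allow for gene length. hoxb5 drops from 0.998 and 1.04 in nexn+/+ to 0.682 and 0.782 in nexn-/-, and hoxb6 from 2.31 and 2.93 to 1.68 and 1.54, while hoxb8, hoxa9 and hoxc13 overlap between genotypes.

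Cofactors that bind with Hox proteins were called about as often as other genes when both directions were pooled, but mostly lower. Of 14 tested rows of pbx, meis and pknox genes, 4 were called lower and 1 higher (35.7%, against 30.6% of all tested genes). By direction, 13.9% of all tested genes were called lower and 16.7% higher. In 9 of the 14 rows each nexn-/- library lay below each nexn+/+ library, as in 34.4% of all tested genes. The median log2(FC) was -0.34, and the list summed to 1540 and 1577 CPM in nexn+/+, against 992 and 990 CPM in nexn-/-. pbx1a stood at 111 and 136 CPM in nexn+/+, against 46.8 and 39.9 CPM in nexn-/- (log2(FC) -1.51, adjusted p = 0.00129). pbx3b stood at 283 and 279 CPM against 111 and 105 CPM (log2(FC) -1.38, adjusted p = 0.00106). Both rows named meis2a were called lower (log2(FC) -0.83 and -0.91). meis1a, the called gene in the other direction, had 24.1 and 16.8 CPM against 35.1 and 39.9 CPM.

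Among upstream regulators, the 17 genes of retinoic acid supply and response had 5 called higher and 2 lower (41.2%, against 30.6% of all tested genes), with a median log2(FC) of 0.17. The receptor genes went both ways. rarga stood at 27.7 and 29.0 CPM in nexn+/+, against 50.8 and 53.6 CPM in nexn-/- (log2(FC) 0.88, adjusted p = 0.0018). The weakly expressed rargb was also called higher. raraa was called lower, with 34.8 and 33.2 CPM against 21.8 and 24.6 CPM (log2(FC) -0.55, adjusted p = 0.012). rarab lay below nexn+/+ in both nexn-/- libraries but was not called (log2(FC) -0.32). Of the binding protein genes, crabp2a, crabp2b and crabp1b were called higher (log2(FC) 0.72, 0.66 and 0.59). Among the binding protein genes only crabp1a, present in hindbrain neurons, was called lower (log2(FC) -1.14). Of 21 Polycomb genes, 8 were called lower (38.1%, against 13.9% of all tested genes), the others were not called, and the median log2(FC) was -0.34. bmi1b, a subunit of Polycomb repressive complex 1, stood at 33.8 and 35.9 CPM in nexn+/+, against 20.8 and 19.3 CPM in nexn-/- (log2(FC) -0.80, adjusted p = 0.00298). bmi1a fell likewise (log2(FC) -0.73), and cbx7a was also called lower (log2(FC) -1.54) although its nexn+/+ libraries, at 8.56 and 18.5 CPM, lay far apart. Of 8 tested posterior regulators, evx2, which lies beside the hoxda cluster and is active in spinal interneurons, was the only one called (12.5%, against 30.6%). It stood at 25.4 and 23.8 CPM in nexn+/+, against 11.5 and 11.4 CPM in nexn-/- (log2(FC) -1.10, adjusted p = 0.00171).

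Many genes of the nervous system were called lower in nexn-/-. Of 12 pan-neuronal genes 10 were called lower (83.3%, against 13.9% of all tested genes), with a median log2(FC) of -0.97, and they summed to 3813 and 3618 CPM in nexn+/+, against 1849 and 1819 CPM in nexn-/-, or 49.4% of nexn+/+. Examples were snap25b (log2(FC) -1.39), syt1a (-1.37) and inaa (-1.33), which serve synaptic release and the neuronal cytoskeleton. Of 11 motor neuron genes 6 were called lower (54.5%, median log2(FC) -0.88), among them isl2b (-1.03), isl1 (-1.0) and lhx4 (-0.98). The other 5 were not called and went both ways. Of these, slc5a7a (-0.90) and mnx1 (-0.51) lay below nexn+/+ in both nexn-/- libraries. The weakly expressed mnx2a (0.98) and isl2a (0.18) lay above, and mnx2b (0.54) overlapped. In forebrain and midbrain, where Hox genes are silent, 8 of 14 genes were called lower (57.1%, median log2(FC) -0.95), among them six3b (-1.35), six3a (-1.21) and en2a (-1.08). The 12 genes of hindbrain segments and nuclei, the tissue closest to groups 1 to 4, had 3 called lower, tlx3b (log2(FC) -1.13), gbx2 (-0.94) and gbx1 (-0.77), and 1 higher, with a median of -0.11. Their share called, 33.3%, was close to the 30.6% of all tested genes. Neuronal genes and groups 3 to 6 thus lay lower in the same libraries, and the part that the amount of neural tissue or RNA had in the Hox values was not tested.

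Fin genes moved the other way. Of 17 genes of fin fields and fin folds 9 were called higher and 2 lower, with a median log2(FC) of 0.68, while 16.7% of all tested genes were called higher and 13.9% lower. hand2, a factor of the pectoral fin field and of the heart, stood at 4.87 and 3.83 CPM in nexn+/+ and at 22.9 CPM in both nexn-/- libraries (log2(FC) 2.40, adjusted p = 0.000949). sall4, which acts in the pectoral fin bud, stood at 5.72 and 6.90 CPM against 17.99 and 16.9 CPM (log2(FC) 1.46, adjusted p = 0.00171). and1, a fin fold actinodin gene, stood at 82.8 and 42.0 CPM against 186 and 184 CPM (log2(FC) 1.57, adjusted p = 0.00737). The fin list summed to 537 and 359 CPM in nexn+/+, against 907 and 899 CPM in nexn-/-. The lower sum in nexn+/+ replicate 2 came from the abundant actinodin genes and1, and2 (224 and 103 CPM) and and3 (58.7 and 28.9 CPM). The other fin genes did not share this drop as a set. hand2 was slightly lower in replicate 2 than in replicate 1, but sall4, pitx1 (11.2 and 15.9 CPM) and msx1b (12.1 and 16.2 CPM) were higher. Of 10 genes of somites and muscle precursors, meox1 was called higher (log2(FC) 0.91) and uncx lower (log2(FC) -0.74), and the others were not called. The summed levels of group 13 and of the fin list thus lay higher in the same libraries, and the part of fin tissue in the group 13 values was not tested.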

How the data were processed

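RNA of whole embryos at 72 hpf was sequenced in 2 nexn+/+ and 2 nexn-/- libraries. The submitters' processing notes name STAR and RSEM, without versions, and the GRCz11 assembly. Values per gene as deposited by the authors were estimated counts without normalization, together with TPM and FPKM, which are scaled to depth and gene length. Annotation release and strandedness of the counting are not given in the sources used here. All 4 tables carry the same library name in their headings, so libraries were taken from the deposition record. Each table holds 1 library, and 104 genes had no symbol.

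Rounded counts were fitted with edgeR 4.0.16 under R 4.3.3 (filterByExpr, TMM, quasi-likelihood test, genotype as the only term, Benjamini-Hochberg adjustment over 20312 genes, adjusted p under 0.05 and log2(FC) beyond 0.5), and the code was tested on simulated data. Effective lengths were computed from the deposited counts and FPKM where FPKM was at least 0.1. Alternatives were DESeq2 1.42.0, limma-voom (limma 3.58.1), other scalings, filters and fold change limits, an effective length offset, the replicate number as a block, and each library left out. With 2 against 2 libraries the smallest exact two-sided permutation p is 0.333, so sums got no test.

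Members and lists were chosen with earlier results of these data known. Named were called Hox genes and their duplicates, the highest gene in TPM of each paralog group, the uncalled gene with the largest change, nexn, rpl13, and up to 3 called genes per list with a mean of at least 1 CPM. Further genes were named outside this rule after their values were seen. Sequences were not analysed here. The common biological coefficient of variation was 0.146, and 1 CPM stands for about 20 counts.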

Additional observations from a re-analysis of the deposited data

How the results depend on the processing

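Hox calls depended on scaling and on single libraries. Hox genes called higher numbered 7 with library size alone, 4 with upper quartile scaling, 9 with rpl13 as reference and 1 with an effective length offset, against 2. Over all tested genes those settings called 21.7%, 20.1%, 25.01% and 15.8% higher, against 16.7%. Hox genes called lower numbered 2 with rpl13, against 4, and over all tested genes 7.22%, against 13.9%. Library size alone and upper quartile scaling called 9.25% and 10.9% of all tested genes lower. DESeq2 called 0 higher (4 at an unadjusted p under 0.05). With a limit of 1 on the log2(FC), 0 Hox genes were called in either direction by edgeR and 3140 genes in all. With each library left out, calls ranged from 0 to 11 higher, from 0 to 10 lower, and from 4 to 8560 over all genes. The median Hox log2(FC) of -0.13 was 0.027 with library size alone and 0.12 with rpl13, and ranged from -0.29 to 0.00998 with each library left out. The log2(FC) of nexn ranged from -1.09 to -0.73 with each library left out, and it was not called without nexn-/- replicate 1 or without nexn-/- replicate 2 (adjusted p = 0.116 and 0.0687).

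The summed level of groups 9 to 13 had a log2 ratio of -0.02, which was 0.15 with library size alone and 0.23 in TPM, and ranged from -0.27 to 0.29 with each library left out. For groups 3 to 6 it was -0.27 with library size alone, -0.18 in TPM and from -0.44 to -0.40 with each library left out, and for groups 11 to 13 from -0.0889 to 0.79. The leave-one-out sums, the paralog group medians and the muscle list were added after seeing the data. Of 48 Hox genes, 21 changed sign under at least 1 of 14 alternatives, and none of the 6 called genes did.

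With the replicate number as a block, 4 Hox genes were called higher and 3 lower, and 6158 genes in all. The labels do not say that a number marks a shared batch. Over tested genes the deviations of same-numbered libraries had a correlation of -0.039. With so few libraries this value cannot tell whether same-numbered libraries share a batch. The median standard error was 0.364 in groups 11 to 13 against 0.147 in groups 3 to 6. The nexn+/+ libraries also lay farther apart in groups 11 to 13, and the part of depth was not tested.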
